A study of Mus musculus with 6 samples.

Results

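The circadian clock genes described here are 10 genes of the transcriptional clock, read in N1E115 mouse neuroblastoma cells at high and low oxygen. They were taken by symbol from the 23358 gene rows of the deposited table, where each of the 10 had 1 row: Bhlhe40, Bhlhe41, Per1, Per2, Per3, Cry1, Cry2, Arntl, Clock and Nr1d1. The rule uses symbols and no measured value, and the genes were proposed with earlier results of these data known. The 2 groups were NOS1+ N1E115 cells, a line with sympathetic neuron features that expresses neuronal nitric oxide synthase, cultured for 3 days in 20% oxygen or for 3 days in 4% oxygen, with 3 RNA sequencing libraries each, numbered 1 to 3. All 6 libraries come from this 1 line with no genetic change between groups. The sources used here state neither whether these were separate cultures nor the hour at which cells were collected, so a p-value measures only how libraries of a group spread, which can be technical.

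The clock is a feedback loop of transcription. CLOCK and BMAL1, the product of Arntl, form a pair of basic helix-loop-helix PAS proteins that binds E-boxes and activates the Per and Cry genes, Nr1d1, Bhlhe40 and Bhlhe41. PER and CRY proteins return to the nucleus and block that pair, while NR1D1, also called REV-ERB alpha, represses Arntl. BHLHE40 and BHLHE41, also called DEC1 and DEC2, are E-box repressors of the same loop, and both genes are known targets of hypoxia-inducible factors, which join the clock to oxygen supply.

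RefSeq promoter windows in GRCm38.p6, the assembly that mm10 names, reach from 250 bases before to 50 bases after a transcript start. They were at hand for 8 of the 10 genes, as 12 windows. Bhlhe40 and Per2 had no window. The 3 windows printed are those that hold the palindromic E-box CACGTG, the sequence at which the activators and the DEC repressors meet. Capitals mark every match on either strand to CACGTG, to ACGTG or GCGTG (cores of the hypoxia response element, of which ACGTG lies inside CACGTG), to AGGTCA (core of the REV-ERB element) or to TTATGNAA (the D-box bound by DBP, TEF, HLF and NFIL3).
Bhlhe41, chr6:145865371-145865670, minus strand: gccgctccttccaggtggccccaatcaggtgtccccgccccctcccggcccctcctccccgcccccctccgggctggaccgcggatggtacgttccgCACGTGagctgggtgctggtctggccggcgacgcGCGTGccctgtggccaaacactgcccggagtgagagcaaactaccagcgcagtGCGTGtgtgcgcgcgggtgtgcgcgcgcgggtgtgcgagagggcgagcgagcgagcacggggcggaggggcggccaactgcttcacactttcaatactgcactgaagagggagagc
Per1, chr11:69098699-69098998, plus strand: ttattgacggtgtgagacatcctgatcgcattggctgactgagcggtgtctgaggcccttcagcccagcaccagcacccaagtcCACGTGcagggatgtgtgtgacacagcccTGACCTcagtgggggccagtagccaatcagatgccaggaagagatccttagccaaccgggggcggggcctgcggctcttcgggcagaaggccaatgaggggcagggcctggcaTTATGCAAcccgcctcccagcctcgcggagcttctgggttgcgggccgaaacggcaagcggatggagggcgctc
Cry1, chr10:85185005-85185304, minus strand: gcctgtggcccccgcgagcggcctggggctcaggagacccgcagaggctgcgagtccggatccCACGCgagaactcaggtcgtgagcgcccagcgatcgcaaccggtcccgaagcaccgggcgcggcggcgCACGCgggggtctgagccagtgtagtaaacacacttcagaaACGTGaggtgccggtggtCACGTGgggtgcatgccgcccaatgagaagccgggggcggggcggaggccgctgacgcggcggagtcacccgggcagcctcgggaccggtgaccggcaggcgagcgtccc
CACGTG stood in 3 of the 12 windows and in 7.15% of all 32851 windows of the same length. ACGTG stood in 5 of the 12 against 19.6% of all windows, and GCGTG in 8 of the 12 against 32.4%. AGGTCA was found in 3 of the 12 windows (Per1, Arntl and Clock) against 16.3%, and TTATGNAA in 2 of the 12 (Per1 and Per3) against 3.38%. A match describes these letters only, and says nothing of binding in these cells.

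All 10 genes were detected in all 6 libraries and passed the filter on low counts, with 14979 genes tested. Library totals ran from 124259152 to 163695286 counts, and the lowest count of any of the 10 was 126, for Bhlhe41 in 20% oxygen replicate 2. Replicate 1 at 20% oxygen stood farthest out: on a first principal component with 37.6% of the variance it had a score of -75.0. On the same side of 0 was 4% oxygen replicate 1, at -27.5, and the libraries numbered 2 and 3 scored 8.52 to 48.9. Of the sympathoadrenal markers that fit the labelled neuroblast type, 12 of 13 were tested, and their summed level was 4480 to 4650 CPM (counts set relative to library size, scaled by trimmed mean of M-values) at 20% oxygen and 6270 to 7510 CPM at 4% oxygen. Markers of other cell types were low, with sums of at most 0.78 CPM for astrocytes, where Aqp4 and Slc1a3 were at 0, and 8.31 CPM for oligodendrocytes, where Mag was at 0. The sums were at most 2.31 CPM for microglia and macrophages and 9.99 CPM for endothelium. Fibroblast and mesenchymal markers summed to 36.7, 5.23 and 6.88 CPM in 20% oxygen replicates 1, 2 and 3 and 8.24 to 17.9 CPM at 4% oxygen, with 4 of 5 tested markers highest of their group in 20% oxygen replicate 1, where Col1a2 and Col3a1 were at 0.

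None of the 10 clock genes passed the edgeR quasi-likelihood test at a Benjamini-Hochberg adjusted p under 0.05, where 0% of the 14979 tested genes did. With DESeq2 0 of the 10 passed, where 64 of all tested genes did. With limma 0 of the 10 passed, as did 0 of all tested genes. At an unadjusted p under 0.05 the edgeR count was 0 of 10, against 4.43% of all tested genes. The groups overlapped for each of the 10, while 6.33% of all tested genes had groups that did not overlap and were higher at 4% oxygen and 3.72% were lower. The median log2 fold change of the 10 was -0.045 against -0.025 over all tested genes, and 5 of the 10 estimates were above 0, as were 47.3% of all estimates. By the same reading 12 of 15 reference targets of hypoxia-inducible factors had groups that did not overlap, all higher at 4% oxygen, with a median log2 fold change of 1.40. That reference list was drawn up with earlier results of these data known.

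**Figure D1:**
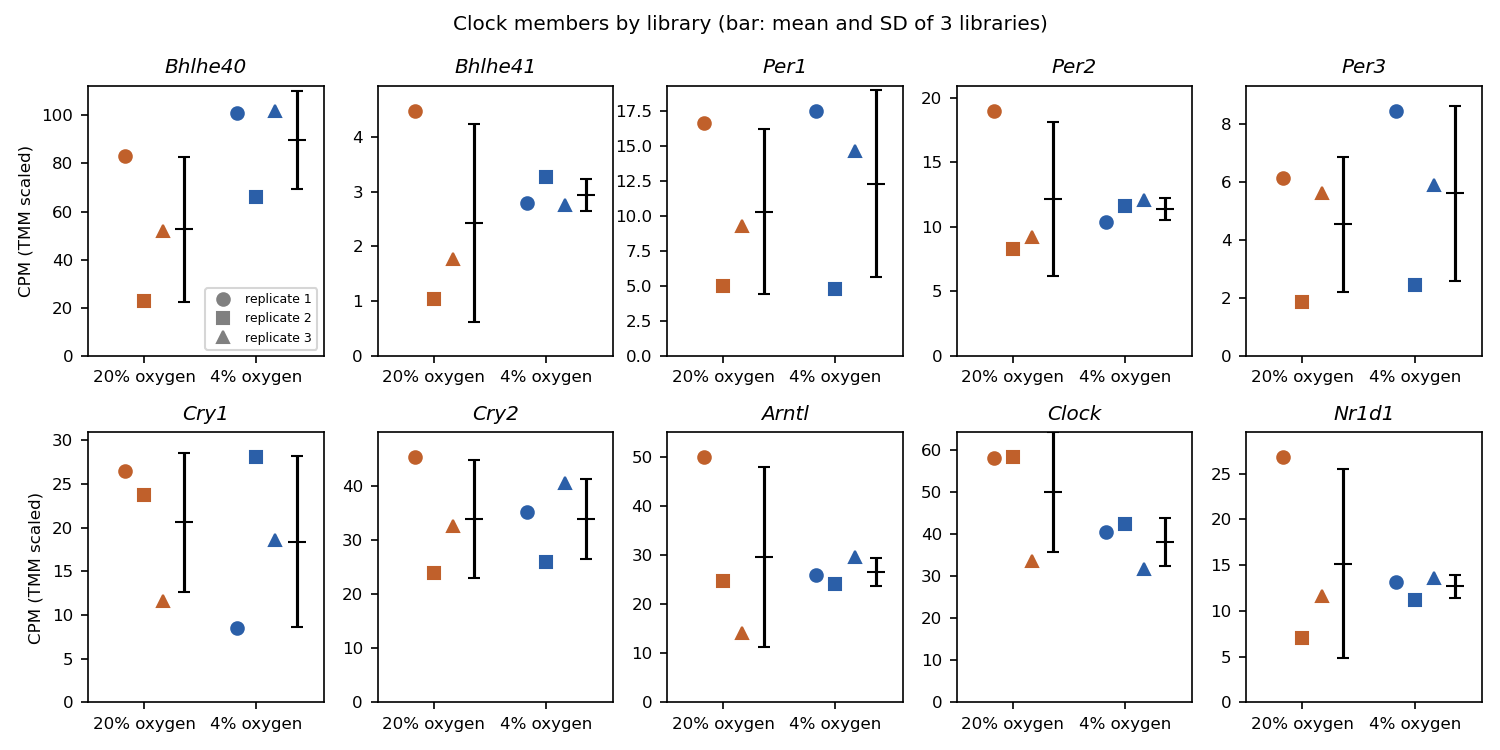
TMM-scaled CPM of each clock gene (vertical axis, from 0, own scale per gene) in the 3 libraries at 20% oxygen and the 3 at 4% oxygen, with symbols for the replicate number and a bar for the mean and SD. Bhlhe40 lies between 66.2 and 102 CPM at 4% oxygen and between 22.8 and 82.9 CPM at 20% oxygen, and 20% oxygen replicate 1 is the highest of its group for 9 of the 10 genes.

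Bhlhe40, the E-box repressor DEC1 (chromosome 6, 108660629 to 108666925 in mm10), had the largest estimate among the 10. At 20% oxygen its level was 82.9, 22.8 and 52.0 CPM in replicates 1, 2 and 3, and at 4% oxygen it was 101, 66.2 and 102 CPM. The groups overlapped because 20% oxygen replicate 1 lay above 4% oxygen replicate 2, while each 4% oxygen library lay above the 20% oxygen library of its own number. Means were 52.5 ± 30.0 CPM (SD, n = 3) at 20% oxygen against 89.7 ± 20.3 CPM at 4% oxygen. The log2 fold change was 0.77, with SE 0.40 and a 95% interval of -0.10 to 1.64, and the edgeR adjusted p over all tested genes was 0.996. The replicate numbers were taken to pair the libraries, an assumption drawn from the counts, and a fit with the number as a block was also made. In that fit the log2 fold change was 0.93 with SE 0.26 (edgeR adjusted p = 0.297). Bhlhe40 was the 1 clock gene under an unadjusted p of 0.05 with the block, where 6.01% of tested genes were so and higher at 4% oxygen.

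Replicate 1 at 20% oxygen moved this estimate most. Without that library the log2 fold change of Bhlhe40 was 1.26 with SE 0.36 (edgeR adjusted p = 0.305), and without 20% oxygen replicate 2, the lowest library, it was 0.41 (edgeR adjusted p = 0.98). The same-numbered differences on the log2 scale were 0.29, 1.54 and 0.97 for numbers 1, 2 and 3, so the direction was shared and the size was not. A level above 20% oxygen in all 3 pairs was found for 17.3% of all tested genes.

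Bhlhe41, the paralog DEC2 (chromosome 6, 145862737 to 145865340), was far less abundant, at 4.48, 1.04 and 1.77 CPM at 20% oxygen and 2.79, 3.27 and 2.76 CPM at 4% oxygen in replicates 1, 2 and 3. The 20% oxygen libraries lay on either side of the 4% oxygen libraries, which were close to each other. The mean was 2.43 ± 1.81 CPM (SD, n = 3) at 20% oxygen against 2.94 ± 0.29 CPM at 4% oxygen, with a log2 fold change of 0.27, SE 0.50 and a 95% interval of -0.825 to 1.37 (edgeR adjusted p = 0.996). Without 20% oxygen replicate 1 the log2 fold change of Bhlhe41 was 1.06 (edgeR adjusted p = 0.489), and without 20% oxygen replicate 2 it was -0.085. With 20% oxygen replicate 1 left out, Bhlhe40 and Bhlhe41 were the 2 of 10 clock genes with an unadjusted p under 0.05, both higher, against 5.79% of tested genes higher in that fit. Per length, on the authors' RPKM scale, the log2 ratio of Bhlhe40 to Bhlhe41 was 3.08, 3.32 and 3.74 in 20% oxygen replicates 1, 2 and 3 and 4.05, 3.21 and 4.07 in 4% oxygen replicates 1, 2 and 3, from 8.44-fold to 16.8-fold. The ratio, which does not depend on how a library is scaled, overlapped between the groups. The deposited row of Bhlhe41 is short: 4712 of its 6720 exonic bases in GENCODE M21 lie outside the deposited span, so its count covers part of the transcript.

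**Figure D2:**
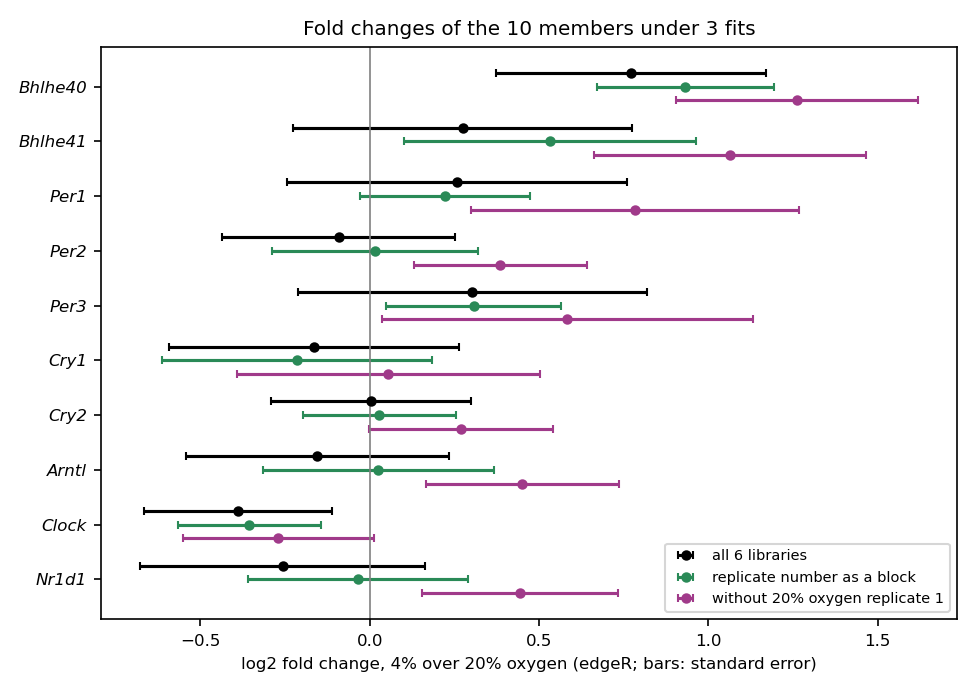
Log2 fold change of each clock gene at 4% over 20% oxygen (horizontal axis) with its standard error, from 3 edgeR fits: on all 6 libraries, blocked on replicate number, and omitting 20% oxygen replicate 1. Bhlhe40 is above 0 in each of the 3 fits (0.77, 0.93 and 1.26) and Clock below 0 (-0.39, -0.36 and -0.27), while Per2, Cry1, Arntl and Nr1d1 lie below 0 in the fit on all 6 libraries and above it without 20% oxygen replicate 1.

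The Per genes encode the scaffold proteins of the repressor complex. Per1 (chromosome 11, 69098956 to 69109957), which also answers acutely to cAMP and glucocorticoid signals, had 16.6, 4.97 and 9.29 CPM at 20% oxygen and 17.5, 4.75 and 14.6 CPM at 4% oxygen in replicates 1, 2 and 3. Replicate 1 was high and replicate 2 low in each group, and the ranges nearly coincided. Its log2 fold change was 0.26, with SE 0.50 and a 95% interval of -0.85 to 1.36 (edgeR adjusted p = 0.996). Per3 (chromosome 4, 151003655 to 151044622), a PER protein that mouse clocks can run without, had the same order of libraries within each group, at 6.14, 1.87 and 5.60 CPM at 20% oxygen and 8.46, 2.44 and 5.90 CPM at 4% oxygen. Its 4% oxygen level was above that of the same number in all 3 pairs, by 0.46, 0.39 and 0.077 on the log2 scale, and its log2 fold change was 0.30, with SE 0.52 (edgeR adjusted p = 0.996). Per2 (chromosome 1, 91415982 to 91459328), the PER protein with the strongest part in keeping the mouse rhythm, had 19.0, 8.26 and 9.17 CPM at 20% oxygen and 10.4, 11.6 and 12.1 CPM at 4% oxygen. Per2 thus differed from Per1 and Per3 in that its 4% oxygen libraries lay within a narrow range, inside the range of the 20% oxygen libraries. Its log2 fold change was -0.092 with SE 0.34, and it was 0.39 without 20% oxygen replicate 1.

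The Cry genes encode the repressors that bind CLOCK and BMAL1 directly. Cry1 (chromosome 10, 85131700 to 85185054) had 26.5, 23.8 and 11.6 CPM at 20% oxygen and 8.49, 28.1 and 18.6 CPM at 4% oxygen in replicates 1, 2 and 3. It was the gene whose profile was farthest from that of Bhlhe40 among the 10, and 4% oxygen replicate 1 was its lowest library where Per1 and Per3 had their highest. The same-numbered differences were -1.64, 0.24 and 0.68 on the log2 scale, and the log2 fold change was -0.17, with SE 0.43 and a 95% interval of -1.11 to 0.77 (edgeR adjusted p = 0.996). Cry2 (chromosome 2, 92403647 to 92434069) varied less, at 45.3, 23.8 and 32.5 CPM at 20% oxygen and 35.2, 26.0 and 40.5 CPM at 4% oxygen. Cry2 averaged 33.8 ± 10.8 CPM (SD, n = 3) at 20% oxygen and 33.9 ± 7.33 CPM at 4% oxygen, and the 95% interval of its log2 fold change ran from -0.64 to 0.65, so changes within that range cannot be told from none with these libraries.

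Both activators had estimates below 0 that did not pass. Arntl (chromosome 7, 113207465 to 113314126), which encodes BMAL1, had 49.9, 24.6 and 14.2 CPM at 20% oxygen and 26.0, 24.1 and 29.6 CPM at 4% oxygen in replicates 1, 2 and 3. The 20% oxygen libraries spanned more than the whole range of the 4% oxygen libraries, around means of 29.6 ± 18.4 CPM (SD, n = 3) and 26.5 ± 2.81 CPM. The log2 fold change was -0.16 with SE 0.39 (edgeR adjusted p = 0.996), which became 0.45 when 20% oxygen replicate 1 was left out and -0.49 when replicate 3 of that group was left out. Clock (chromosome 5, 76212177 to 76304548), the partner of BMAL1, had 58.0, 58.3 and 33.6 CPM at 20% oxygen and 40.4, 42.3 and 31.7 CPM at 4% oxygen. Each 4% oxygen library was below the 20% oxygen library of its number, with differences of -0.52, -0.46 and -0.083 on the log2 scale, a pattern in all 3 pairs shown by 14.3% of tested genes. The log2 fold change of Clock was -0.39, with SE 0.28 and a 95% interval of -0.999 to 0.22 (edgeR adjusted p = 0.996), and it was -0.61 without 20% oxygen replicate 3 (edgeR adjusted p = 0.87).

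Nr1d1 (chromosome 11, 98767935 to 98775242), the repressor of Arntl, had 26.8, 7.04 and 11.6 CPM at 20% oxygen and 13.2, 11.2 and 13.6 CPM at 4% oxygen in replicates 1, 2 and 3. The 4% oxygen libraries sat close together between the 20% oxygen extremes. The mean was 15.2 ± 10.4 CPM (SD, n = 3) at 20% oxygen against 12.7 ± 1.33 CPM at 4% oxygen. The log2 fold change of -0.26, with SE 0.42 (edgeR adjusted p = 0.996), became 0.44 without 20% oxygen replicate 1. In GENCODE M21, 263 exonic bases of Nr1d1, 8.55% of its exonic length, also lie in exons of Thra on the opposite strand. Strand use in counting is not given in the sources used here, so reads of that stretch may belong to either gene. Opposite-strand overlaps with other genes of the deposited table touch Bhlhe40 (118 bases, 2.51% of its exonic length, 0610040F04Rik) and Cry2 (295 bases, 4.67%, D930015M05Rik). Genes without a deposited row overlap Bhlhe41 (1280 bases, 19.0%, Gm43909) and Arntl (33 bases, 0.439%, Gm45355), also on the opposite strand. Whether these bases lie inside the deposited spans was not examined.

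On the authors' RPKM scale, which allows genes of different length to be set beside each other, the order of mean level over the 6 libraries was Bhlhe40 (14.5 RPKM), Arntl (6.16 RPKM), Cry2 (4.92 RPKM), Cry1 (4.16 RPKM), Clock (3.75 RPKM), Nr1d1 (3.35 RPKM), Per1 (1.52 RPKM), Per2 (1.28 RPKM), Bhlhe41 (1.20 RPKM) and Per3 (0.534 RPKM). Neighbours in this order overlapped in range in all 9 cases. Within single libraries, Nr1d1 was above Per1 and Bhlhe41 above Per3 in 6 of 6, and Bhlhe40 was above Arntl in 5 of 6, the exception being 20% oxygen replicate 2. The other 6 neighbours changed places in at least 1 library. On this scale the means of the activators and the Cry genes lay between 3.75 and 6.16 RPKM, and those of the Per genes between 0.534 and 1.52 RPKM.

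The difference between libraries of 1 group was larger for the clock genes than for most genes at 20% oxygen. The SD of log2 CPM over the 3 libraries at 20% oxygen had a median of 0.889 over the 10 genes and 0.424 over all tested genes. At 4% oxygen these medians were 0.275 and 0.310, an order that turned without replicate 1: they were 0.359 and 0.216 without replicate 1, 0.151 and 0.236 without replicate 2, and 0.242 and 0.322 without replicate 3. Whether the spread of the 10 differs between the oxygen levels was not tested. At 4% oxygen Per2, Bhlhe41, Arntl and Nr1d1 had SDs of 0.118 to 0.155, at the 11.5th to 18.8th percentile of all tested genes, whereas Per1, Per3 and Cry1 had SDs of 0.876 to 1.02, at the 92.4th to 94.9th percentile. Clock, Cry2 and Bhlhe40 lay between, at 0.224 to 0.355.

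**Figure D3:**
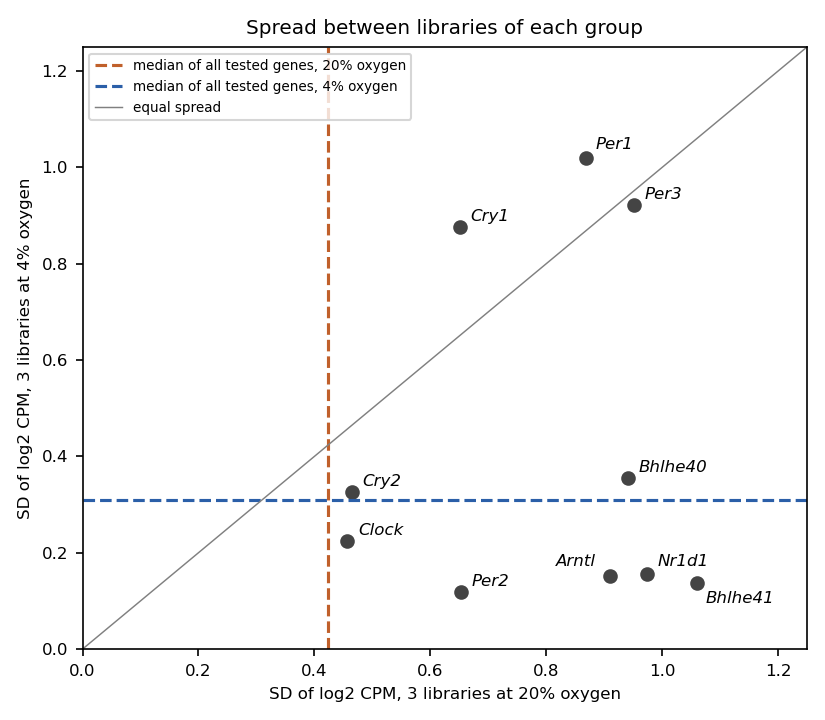
SD of log2 CPM between the 3 libraries at 20% oxygen (horizontal axis) and between the 3 at 4% oxygen (vertical axis) for each clock gene, with dashed lines at the medians of all tested genes (0.424 and 0.310). Per2, Bhlhe41, Arntl and Nr1d1 lie at the bottom with 4% oxygen SDs of 0.118 to 0.155, and Per1 and Cry1 lie above the line of equal spread.

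Replicate 1 at 20% oxygen was the highest of its group for 9 of the 10 clock genes, all but Clock, where 38.3% of all tested genes were highest there. Its log2 level stood above the mean of the other 20% oxygen libraries by 1.71 for Bhlhe41, 1.57 for Nr1d1, 1.42 for Arntl, 1.28 for Per1 and 1.27 for Bhlhe40, which are between the 91.4th and the 95.6th percentile of all tested genes. The gaps were smaller for Per2, Per3, Cry2, Cry1 and Clock, from 1.12 (Per2, 89.4th percentile) down to 0.389 (Clock, 68.8th percentile). Without that library the median SD at 20% oxygen was 0.564 for the 10 genes and 0.283 for all tested genes, without replicate 2 it was 0.666 and 0.388, and without replicate 3 it was 1.03 and 0.398. Replicate 2 at 20% oxygen was the lowest of its group for 7 of the 10, against 31.5% of all tested genes. The mesenchymal marker sum was 36.7 CPM in 20% oxygen replicate 1, of which Pdgfrb had 24.5 CPM, against 5.23 and 6.88 CPM in replicates 2 and 3. The endothelial, oligodendrocyte and microglia and macrophage sums were also highest of their group there, at 9.99, 8.31 and 2.31 CPM. The astrocyte sum was not. The reference targets of hypoxia-inducible factors summed to 3860, 2420 and 3720 CPM in 20% oxygen replicates 1, 2 and 3, with 8 of 15 highest of their group in replicate 1 and 12 of 15 lowest in replicate 2. The part of the marker sums or of these targets in the clock levels was not tested. In bulk RNA, fewer cells of a type and less RNA per cell cannot be told apart.

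The genes of the wider loop, a list of 11 drawn up with earlier results of these data known, added 10 tested genes, of which 0 passed the edgeR test over all genes, 0 were higher and 1 lower at an unadjusted p under 0.05, where 4.43% of all tested genes were in either direction. Their median log2 fold change was -0.16, with 2 of 10 estimates above 0. Nr1d2, which encodes REV-ERB beta, the partner of NR1D1 in repressing Arntl, was the 1 gene of the loop whose groups did not overlap, as for 3.72% of all tested genes in the lower direction, at 87.7, 82.2 and 86.6 CPM at 20% oxygen and 60.2, 36.2 and 37.6 CPM at 4% oxygen in replicates 1, 2 and 3. Its log2 fold change was -0.94 with SE 0.26 (edgeR adjusted p = 0.699, and 0.184 with the block). Its 20% oxygen libraries agreed closely, unlike those of Nr1d1. Ciart, a repressor of the CLOCK and BMAL1 pair, averaged 7.83 ± 5.81 CPM (SD, n = 3) at 20% oxygen and 10.8 ± 3.01 CPM at 4% oxygen, and Rorb, a nuclear receptor that activates at REV-ERB elements, 5.33 ± 0.753 and 4.04 ± 0.502 CPM. Rora, its relative, was too low to be tested.

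Replicate 1 at 20% oxygen was the highest of its group for 6 of the 10 loop genes, Nr1d2, Ciart, Nfil3, Dbp and Tef among them, and the lowest for 3, Npas2, Arntl2 and Hlf. Npas2 and Arntl2 are the paralogs of Clock and Arntl. Each was lowest of its group in 20% oxygen replicate 1, where Arntl was highest and Clock was not. Npas2 was near the floor, at 0.124, 0.463 and 0.315 CPM in 20% oxygen replicates 1, 2 and 3, and Arntl2 had 1.72, 4.23 and 4.49 CPM. Dbp, the D-box activator, had 8.17, 2.78 and 6.09 CPM at 20% oxygen and 7.95, 4.19 and 5.29 CPM at 4% oxygen in replicates 1, 2 and 3. Its order of libraries at 20% oxygen was also that of Bhlhe40, Bhlhe41, Per1, Per2, Per3, Cry2 and Nr1d1. Nfil3, the D-box repressor, had 69.9, 23.1 and 22.5 CPM at 20% oxygen and 33.7, 33.1 and 37.6 CPM at 4% oxygen, a narrow 4% oxygen range inside the wide 20% oxygen range, as for Arntl and Nr1d1.

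**Figure D4:**
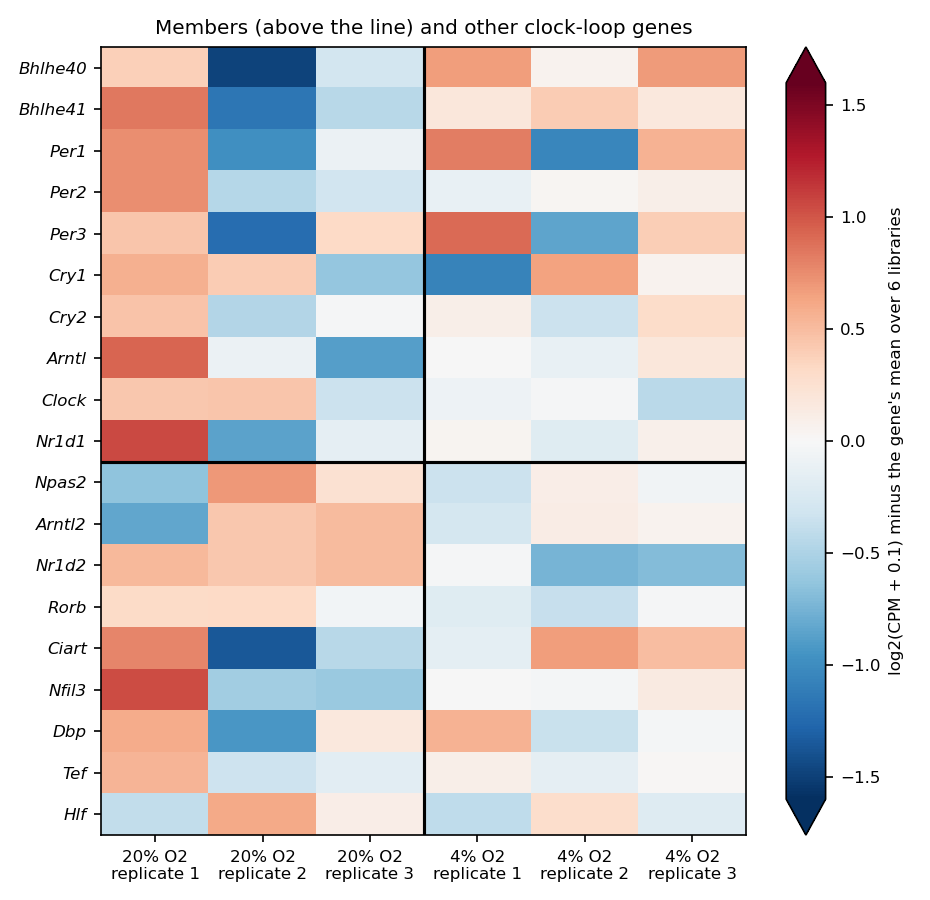
Log2(CPM + 0.1) of each gene minus its own mean over the 6 libraries, in colour, for the 10 clock genes above the horizontal line and other genes of the loop below it, with 20% oxygen libraries left of the vertical line. Within the 20% oxygen libraries replicate 1 has the highest value for 9 of the 10 clock genes, and Nr1d2 is higher in the 3 libraries at 20% oxygen.

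Proteins that modify the clock proteins were on a list of 17, all tested, with 0 called by the edgeR test. At an unadjusted p under 0.05, 0 were higher and 2 lower, where 4.43% of all tested genes were in either direction. The median log2 fold change of the 17 was -0.043. Sirt1, a deacetylase that acts on clock proteins, had 46.1, 52.9 and 21.1 CPM at 20% oxygen and 15.2, 28.6 and 15.2 CPM at 4% oxygen in replicates 1, 2 and 3, with overlapping groups and a log2 fold change of -1.03 (edgeR adjusted p = 0.996). Csnk2a1, a catalytic subunit of casein kinase II, averaged 277 ± 72.5 CPM at 20% oxygen against 222 ± 39.3 CPM at 4% oxygen. Among 6 output genes of the clock 0 had an unadjusted p under 0.05, against 4.43% of all tested genes. Of the 6, Nampt, the enzyme that limits NAD+ salvage, averaged 228 ± 14.8 and 269 ± 50.1 CPM. The D-box activator Hlf averaged 15.2 ± 5.19 and 12.8 ± 3.22 CPM, and Wee1, a kinase that holds back mitosis, 35.7 ± 10.6 and 32.1 ± 6.98 CPM.

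The 5 genes whose profile over the 6 libraries lay closest to that of Bhlhe40, among 10326 with a mean of at least 5 CPM, were Zfp395, Papln, Fam131a, Plekha2 and Pou6f1. Likeness was the root mean square difference of log2 CPM after each gene's mean was taken off, and it was 0.133, 0.157, 0.168, 0.175 and 0.199 for these genes. Each was lowest in 20% oxygen replicate 2, as Bhlhe40 was. Zfp395 had 9.10, 2.71 and 7.05 CPM at 20% oxygen and 10.9, 8.96 and 11.9 CPM at 4% oxygen in replicates 1, 2 and 3. Of the other clock genes Bhlhe41 was nearest, with a difference of 0.398 from Bhlhe40, smaller than for all but 1.59% of the candidate genes, followed by Per3 (0.489) and Nr1d1 (0.527). Clock (0.959) and Cry1 (1.12) were farthest. The libraries compared share their scaling and were taken to be paired by number, so this is a description of 6 libraries.

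**Figure D5:**
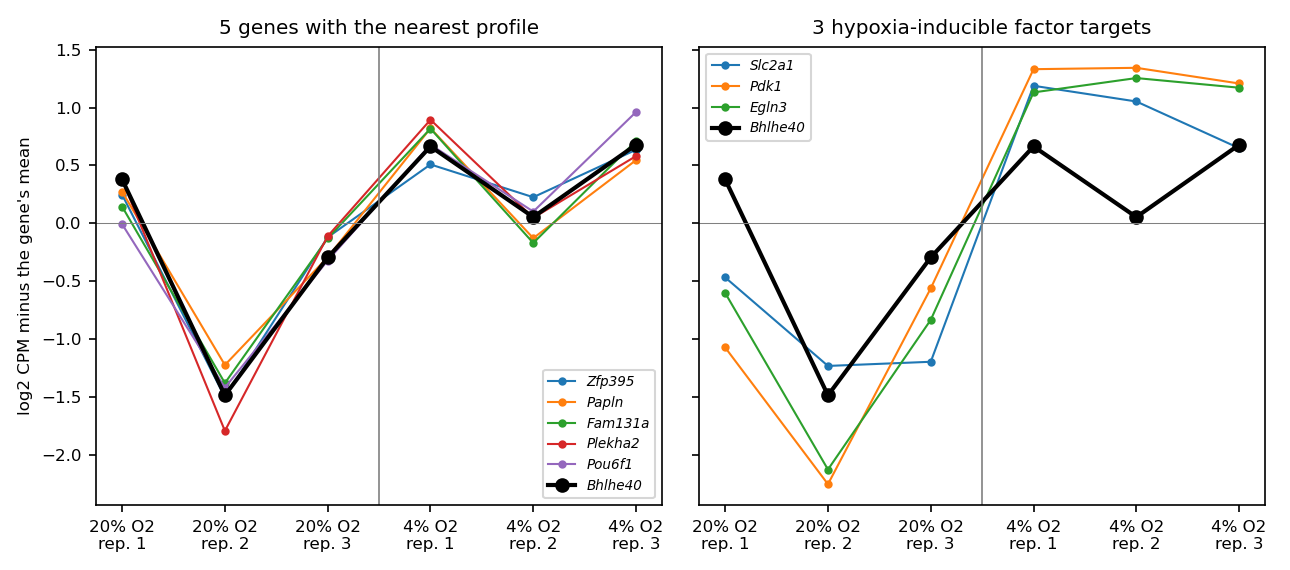
Log2 CPM minus each gene's mean (vertical axis) in the 6 libraries, with Bhlhe40 in black beside the 5 genes nearest to it in profile (left) and beside Slc2a1, Pdk1 and Egln3 (right). Bhlhe40 is lowest in 20% oxygen replicate 2 in either panel, and in 20% oxygen replicate 1 it lies above its own mean where the 3 targets lie below theirs.

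Set beside genes that hypoxia-inducible factors are known to activate, Bhlhe40 was above its own mean in 20% oxygen replicate 1, where 12 of the 15 reference targets, Slc2a1, Pdk1 and Egln3 among them, were below theirs and Vegfa, P4ha1 and Pfkfb3 were above. Slc2a1, the basal glucose transporter, had 67.4, 39.7 and 40.7 CPM at 20% oxygen and 212, 193 and 146 CPM at 4% oxygen in replicates 1, 2 and 3, so its groups stood apart where those of Bhlhe40 overlapped. Its log2 fold change was 1.90 with SE 0.29 (edgeR adjusted p = 0.112, and 0.0222 with the block). Pdk1, a kinase that restrains pyruvate dehydrogenase, and Egln3, an oxygen-dependent prolyl hydroxylase, had log2 fold changes of 2.43 (SE 0.38) and 2.24 (SE 0.36), with edgeR adjusted p = 0.112 for each, 0.0258 and 0.0355 with the block. These 3 of the 15 reference genes passed with the block, as 0.0734% of all tested genes did, and 0 of the 10 clock genes did.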

How the data were processed

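RNA was measured in 6 libraries of N1E115 cells, 3 per oxygen level. Per the submitters' processing notes, TopHat2 2.0.6, Bowtie, HTSeq and mm10 were used, with no role given for each. Nothing used here states strand use, counting mode or annotation. The labels name a stranded total RNA kit in one place and an mRNA kit in another. The deposited table holds raw gene counts, 100% of them even numbers, and the authors' RPKM values per kilobase of a deposited length, of which 37.8% are multiples of 3, so untranslated regions are included. RPKM served for levels between genes and as an alternative. A total of 0 sample columns were left unmatched and 0 rows lacked a name.

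The main test was edgeR 4.0.16 under R 4.3.3 (filterByExpr with minimum count 10 and total 15, TMM, quasi-likelihood test, two-sided, no covariate), with p-values adjusted by Benjamini-Hochberg over 14979 tested genes. SE is the log2 fold change over the square root of F, and intervals at 95% use the fit's degrees of freedom. Alternatives used DESeq2 1.42.0 and limma 3.58.1. The edgeR fit, the blocked edgeR fit, DESeq2, limma-voom and limma on log2(RPKM + 0.1) were first run on simulated counts. Those counts had less spread than these data and no replicate effect, so they do not show what changes these data could reveal. Over all tested genes, deviations from group means correlated at 0.285, 0.465 and 0.233 between libraries numbered 1, 2 and 3. All were above 0.1, so the numbers were taken to pair the libraries. Of the 10 clock genes, 6, 8 and 5 deviated the same way at both oxygen levels in numbers 1, 2 and 3. GENCODE M21 (GRCm38) gave exon overlaps. Gene symbols were matched as deposited, with Ciart as Gm129 and Noct as Ccrn4l.

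The members, lists and motifs were chosen with earlier results of these data known. Named genes were the 10 members, Hif1a and Epas1, the 3 tested genes with the smallest p in each list, and the 5 genes nearest to Bhlhe40 in profile. Other list genes named were chosen after their values were seen. Some genes of these lists are not reported here.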

Additional observations from a re-analysis of the deposited data

How the results depend on the processing

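None of the 10 clock genes was called in any of the 18 alternatives tried for each, where the smallest edgeR, DESeq2 or limma adjusted p was 0.297 (Bhlhe40 with the replicate block). The block changed no call of a clock gene, modifier or other loop gene. Bhlhe40 stayed above 0 (0.41 to 1.26) and Clock below 0 (-0.61 to -0.23) in all 18 alternatives. Of 180 alternative estimates 32 turned sign; the cause was not tested. With single libraries left out, the ranges were -0.09 to 1.06 (Bhlhe41), -0.10 to 0.78 (Per1), -0.30 to 0.39 (Per2), -0.14 to 0.66 (Per3), -0.61 to 0.16 (Cry1), -0.20 to 0.27 (Cry2), -0.49 to 0.45 (Arntl) and -0.60 to 0.44 (Nr1d1). With both libraries of a number left out, an alternative chosen after seeing the data, they were -0.18 to 1.07 (Bhlhe41), -0.33 to 0.42 (Per2), -0.50 to 0.38 (Cry1), -0.17 to 0.22 (Cry2), -0.57 to 0.45 (Arntl) and -0.52 to 0.38 (Nr1d1). Cry2 was -0.020 with RLE scaling and with DESeq2. Per2 was 0.0093 with limma-voom, 0.076 and 0.027 on log2(RPKM + 0.1) and log2(RPKM + 1), and 0.016 with the block. Arntl was 0.031, 0.10, 0.065 and 0.026 in those 4 fits, and Nr1d1 was 0.032 on log2(RPKM + 0.1).

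Clock genes with an unadjusted p under 0.05 numbered 0 in the edgeR fit and 0 to 2 with libraries left out. The number was 1 with no low-count filter, limma-voom, either RPKM fit or the replicate block. Over all tested genes the share was 4.43% in the edgeR fit, in either direction. In the higher direction it was 6.01% with the block and 5.79% without 20% oxygen replicate 1. For the other fits this share was not counted, so their numbers have no background beside them. Genes called over all tested numbered 0, but 27 with no filter, 64 with DESeq2, 11 with the replicate block and 0 to 1 with libraries left out. The log2 ratio of Bhlhe40 to Bhlhe41 was 4.21, 4.45 and 4.88 at 20% oxygen and 5.19, 4.34 and 5.20 at 4% oxygen from counts, and 3.08, 3.32 and 3.74 and then 4.05, 3.21 and 4.07 from RPKM, which divides by length. Each group has 3 libraries, and how far depth or the spread between libraries limits these values was not tested.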

Other observations

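Genes that carry acute signals to Per1, immediate early and glucocorticoid-responsive genes, were on a list of 10, of which 9 were tested and 0 called by the edgeR test over all genes, with 0 higher and 1 lower at an unadjusted p under 0.05 (4.43% of all tested genes in either direction). Fos, an immediate early transcription factor, had 20.9, 15.4 and 20.4 CPM at 20% oxygen and 21.1, 22.0 and 30.3 CPM at 4% oxygen in replicates 1, 2 and 3, and Egr1, another, had 22.8, 15.2 and 22.2 CPM and then 28.2, 23.4 and 41.8 CPM. Their groups did not overlap, as for 6.33% of all tested genes in the higher direction, with log2 fold changes of 0.37 and 0.63, and neither passed (edgeR adjusted p = 0.996 for each). Sgk1, a kinase gene that responds to glucocorticoids, had 211, 218 and 109 CPM at 20% oxygen and 63.1, 119 and 69.3 CPM at 4% oxygen. Its log2 fold change was -1.10 with SE 0.34 (edgeR adjusted p = 0.803; in the blocked fit 0.184). At 20% oxygen Fos and Egr1 were highest in replicate 1 and lowest in replicate 2. Bhlhe40, Bhlhe41, Per1, Per2, Per3, Cry2 and Nr1d1 also had that order, so it was not particular to Per1. At 4% oxygen Fos and Egr1 did not have the order of Per1. A link between these genes and Per1 was not tested.

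Among 12 other bHLH-PAS genes, the protein family of CLOCK and BMAL1, 8 were tested and Arnt2 and Ahr were at 0 counts in all 6 libraries. Hif1a, the oxygen-regulated subunit, had 296, 328 and 221 CPM at 20% oxygen and 167, 224 and 177 CPM at 4% oxygen in replicates 1, 2 and 3, with overlapping groups and a log2 fold change of -0.57 (edgeR adjusted p = 0.996). Epas1, which encodes HIF-2 alpha, ran from 0.062 to 0.264 CPM. Arnt, the partner of both, averaged 44.3 ± 19.7 (SD, n = 3) and 30.6 ± 4.07 CPM. Its highest library was 20% oxygen replicate 1 at 66.7 CPM, as for 5 of the 10 clock genes, Arntl among them. Hif3a averaged 1.12 ± 1.21 and 3.56 ± 2.56 CPM, and in each group it was lowest in replicate 2, as were Bhlhe40, Per1, Per3, Cry2 and Nr1d1.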
